A study of Homo sapiens with 12 samples.

Results

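The chemoattractant and chemokine receptors examined here were 10 genes, taken from a table of 58288 genes by matching Ensembl identifiers to receptor symbols. They comprised the formyl peptide receptors FPR1 and FPR2, the complement C5a receptor C5AR1, the CXC chemokine receptors CXCR2 and CXCR4, the CC chemokine receptors CCR1, CCR2 and CCR7, the leukotriene B4 receptor LTB4R, and the platelet-activating factor receptor PTAFR. All 10 were matched. No measured value entered the rule that picked them, but they were chosen with earlier results of these data known. RNA came from HL-60/S4, an established human promyelocytic leukemia cell line, and was sequenced after ribosomal RNA depletion in 12 libraries of 4 groups with 3 libraries each. Cells at 8 passages were either left undifferentiated (promyelocytes) or turned towards a granulocytic form (granulocytes) by 4 days in all-trans retinoic acid (ATRA) at 1 µM. Both forms then received TNF-α at 16 ng/ml, or the same volume of water as vehicle, for 2 h in medium with added calcium. By the study's methods, granulocytes were suspended at a lower cell density than promyelocytes, and their fresh medium again held 1 µM ATRA. Promyelocytes and granulocytes were handled as separate experiments, and a difference in level between these forms and a difference between the experiments cannot be told apart. The 4 groups are called vehicle promyelocytes, TNF-α promyelocytes, vehicle granulocytes and TNF-α granulocytes.

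Chemoattractant receptors are G protein-coupled receptors that span the membrane of leukocytes, sense gradients of peptides, complement fragments, chemokines and lipids, and mainly signal through Gi proteins to direct migration. In neutrophils, receptors for bacterial formyl peptides and for C5a act as end-point signals at sites of infection, whereas leukotriene B4 and CXCR2 ligands act as intermediate signals that bring cells towards them. CXCR4, which binds CXCL12, retains myeloid cells in the bone marrow, and opposing signals through CXCR2 favor their release.

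Library totals lay between 22829189 and 31895061 read pairs assigned to genes. The floor used here, 3 counts in a library, corresponded to 0.0963 to 0.132 CPM, the normalized count of a gene relative to the TMM-scaled size of its library. The TNF-α target genes TNF, NFKBIA, TNFAIP3, BIRC3 and ICAM1 were increased by TNF-α in both cell types (5 of 5). Of all genes tested, 8.15% were increased in promyelocytes and 24.4% in granulocytes. Summed over 6 promyelocyte marker genes, levels were 7919 to 8487 CPM in vehicle promyelocytes and 2258 to 2514 CPM in vehicle granulocytes. Over 6 granulocyte marker genes the sums were 395 to 417 CPM and 4153 to 4413 CPM. Of 5 macrophage marker genes, MRC1, CD163 and MARCO were at or under the floor in all 4 groups, and the 5 genes summed to 3.86 to 4.81 CPM in vehicle promyelocytes and 49.7 to 51.5 CPM in vehicle granulocytes. Lymphocyte marker genes, 6 in number, summed to 15.9 to 16.8 CPM and 20.5 to 23.7 CPM, with MS4A1, the B cell marker CD20, at or under the floor in every group.

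TNF-α increased some receptors and decreased others in each cell type, and no receptor passed in opposite directions in promyelocytes and granulocytes. Of all genes tested, 14.8% passed in promyelocytes and 49.2% in granulocytes (edgeR adjusted p under 0.05). In promyelocytes PTAFR rose 9.45-fold and CXCR4 2.34-fold, FPR2 rose slightly, and CCR2, CXCR2 and CCR1 fell 4.23-fold, 1.93-fold and 1.86-fold. In granulocytes PTAFR rose 11.6-fold, FPR2 and FPR1 rose, and CCR2, CXCR2, LTB4R and CCR1 fell 4.08-fold, 3.42-fold, 1.44-fold and 1.29-fold. CXCR4 in granulocytes lay at 8.58 CPM with vehicle and 8.78 CPM with TNF-α.

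In promyelocytes all 10 receptors passed the filter on low counts. At an adjusted p under 0.05 (edgeR quasi-likelihood test, adjusted over all genes tested), 3 receptors were increased, 3 were decreased and 4 did not pass. Of all 16250 genes tested in promyelocytes, 14.8% passed, 8.15% as increased and 6.65% as decreased. Libraries of TNF-α and vehicle promyelocytes did not overlap for 8 of 10 receptors, against 31.0% of all genes tested. The median log2 fold change of the 10 receptors was -0.13, beside -0.01 over all genes tested.

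In granulocytes 9 receptors were tested, since CCR7 had no counts, and 3 were increased, 4 were decreased and 2 did not pass. Of all 16944 genes tested in granulocytes, 49.2% passed, 24.4% as increased and 24.8% as decreased, so the background was far higher than in promyelocytes. Libraries did not overlap for 8 of 9 receptors, against 55.6% of all genes. The median log2 fold change of the receptors was -0.36, beside -0.0047 over all genes tested. Because these are bulk RNA samples, a lower level may mean fewer cells with the RNA or less RNA in each cell, which cannot be told apart.

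**Figure D1:**
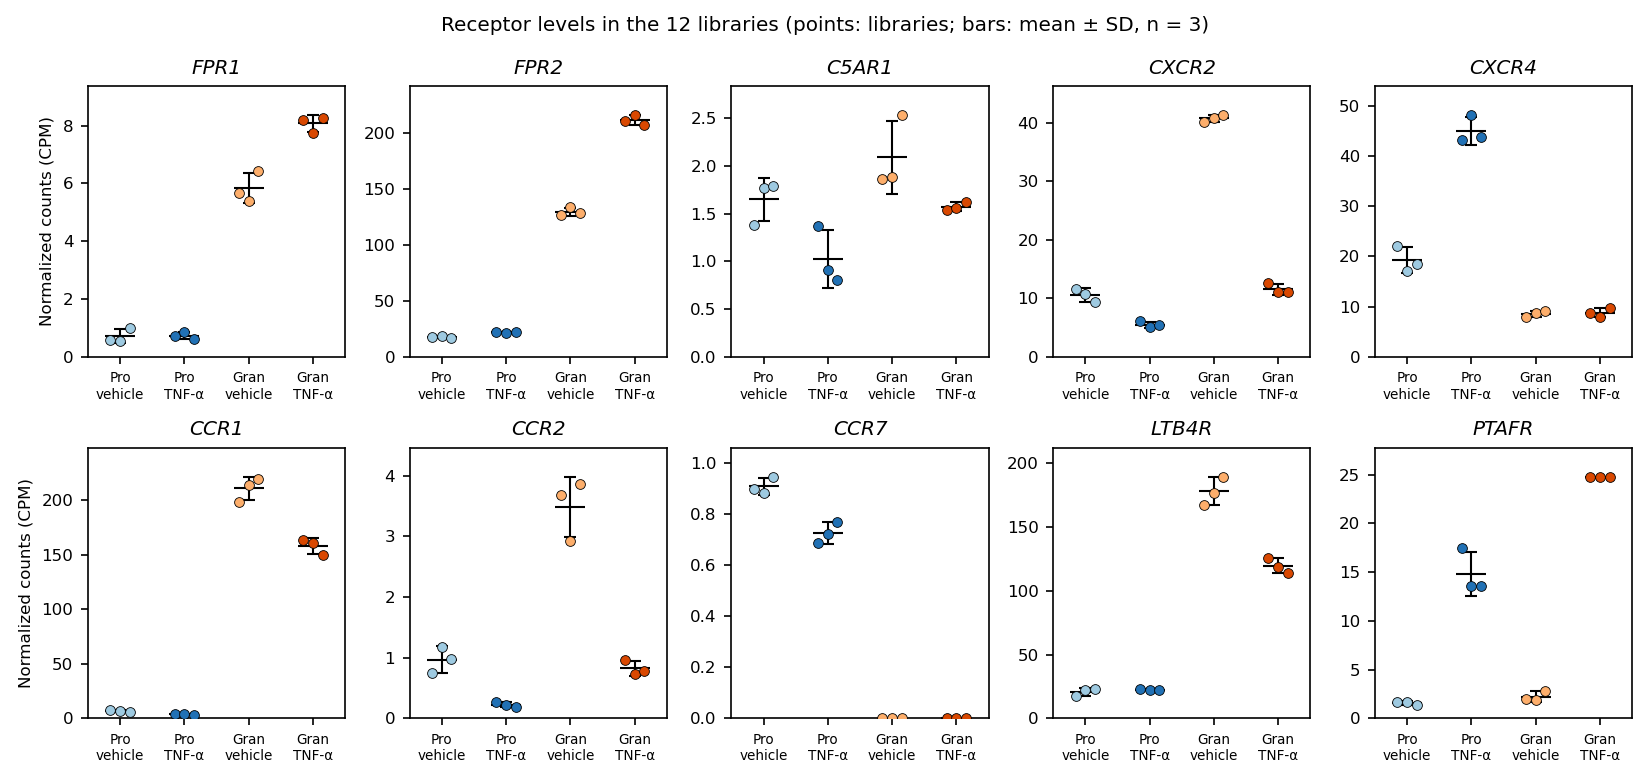
Normalized counts (CPM, linear axes from 0) of the 10 receptors in the 12 libraries, with 1 panel a gene. Points are libraries and bars are the mean ± SD of 3 libraries. PTAFR rose with TNF-α in both cell types, CXCR4 rose in promyelocytes and overlapped between the granulocyte groups, and CCR7 was at 0 in all 6 granulocyte libraries.

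**Figure D2:**
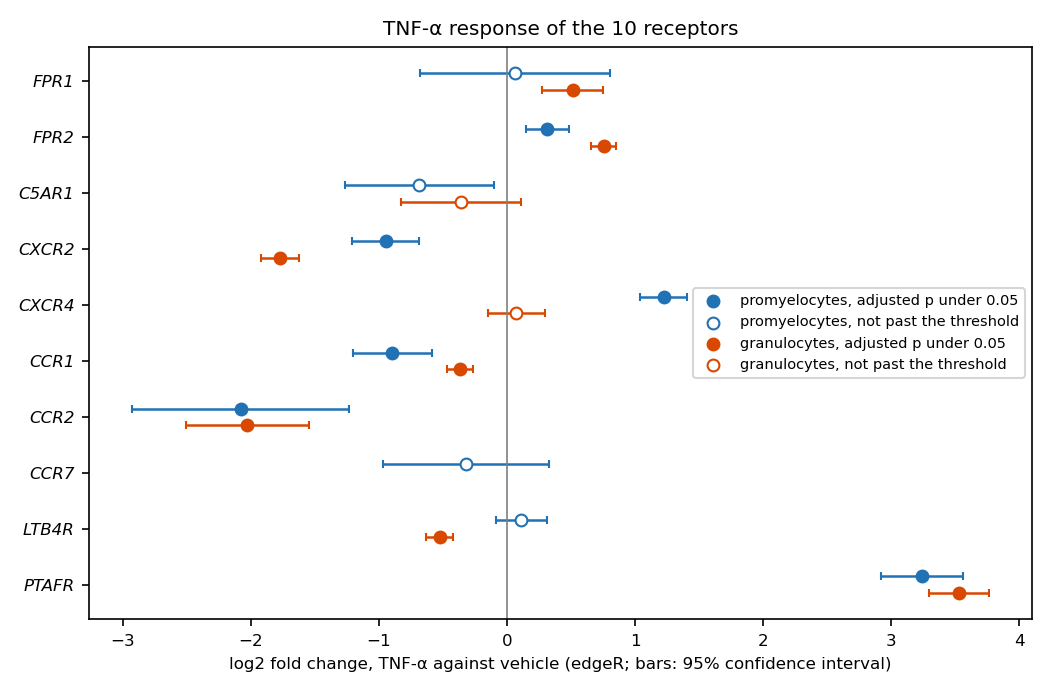
Log2 fold change of each receptor with TNF-α against vehicle (x axis) in promyelocytes (blue) and granulocytes (orange), with 95% confidence intervals. Filled points passed an adjusted p under 0.05 and open points did not. PTAFR lay at 3.24 and 3.53, and CCR2 at -2.08 and -2.03.

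FPR1 and FPR2 recognize N-formylated peptides released by bacteria and mitochondria, FPR1 with high affinity, and FPR2 also binds endogenous ligands such as annexin A1. On chromosome 19 the annotated span of FPR2 lies within that of FPR1, on the opposite strand (hg38; FPR1 at chr19:51745172-51804110, minus strand; FPR2 at chr19:51752026-51770526, plus strand). FPR1 was low in promyelocytes, at 0.579, 0.552 and 0.984 CPM with vehicle and 0.725, 0.869 and 0.610 CPM with TNF-α. These libraries overlapped, and the log2 fold change of 0.06 did not pass (adjusted p = 0.937, edgeR), with a 95% confidence interval of -0.68 to 0.80. In granulocytes FPR1 lay at 5.69, 5.40 and 6.43 CPM with vehicle and at 8.21, 7.74 and 8.28 CPM with TNF-α. All 3 TNF-α libraries were above all vehicle libraries, an increase of 0.51 ± 0.12 (log2, SE; adjusted p = 0.000392, edgeR).

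By assigned read pairs, FPR2 was much the more abundant of the 2 genes in every group. A read pair that maps to several places counted once, at its primary alignment, so the split between these paralogs is uncertain. In vehicle promyelocytes FPR2 was at 17.6, 18.6 and 16.8 CPM, and in TNF-α promyelocytes at 22.1, 21.6 and 22.2 CPM. The groups did not overlap, and the log2 fold change was 0.31 ± 0.08 (SE; adjusted p = 0.0101, edgeR). This call depended on 1 library: without vehicle promyelocyte replicate 3 the value was 0.28 with an adjusted p of 0.0503. In granulocytes FPR2 rose from 127, 133 and 128 CPM to 211, 216 and 207 CPM. That was an increase of 0.76 ± 0.05 (log2, SE; adjusted p = 4.8e-16, edgeR), and the libraries stood well apart. Per length, the ratio of FPR2 to FPR1 was 15.6 ± 1.70 (SD, n = 3) in vehicle granulocytes and 18.3 ± 1.05 (SD, n = 3) in TNF-α granulocytes.

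C5AR1 binds the complement fragment C5a, a strong attractant and activator of neutrophils (hg38 chr19:47290023-47322066, plus strand). It was among the lowest receptors in all groups, with 25 to 74 counts per library. Vehicle promyelocytes held 1.38, 1.77 and 1.79 CPM, and TNF-α promyelocytes held 1.37, 0.905 and 0.802 CPM. The libraries just failed to overlap, and the log2 fold change of -0.68 ± 0.28 (SE) did not pass (adjusted p = 0.111, edgeR). Without TNF-α promyelocyte replicate 1, the highest of its group, it was -0.94 with an adjusted p of 0.0470. In granulocytes C5AR1 was at 1.86, 1.88 and 2.53 CPM with vehicle and at 1.54, 1.56 and 1.62 CPM with TNF-α. The TNF-α libraries were again the lower ones, but the log2 fold change of -0.36 (95% confidence interval -0.83 to 0.11) did not pass (adjusted p = 0.200, edgeR).

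CXCR2 is the receptor for CXCL8 and the related CXCL1 to CXCL3 chemokines, which draw neutrophils into tissue (hg38 chr2:218125289-218137253, plus strand). Vehicle promyelocytes held 11.6, 10.8 and 9.31 CPM, and TNF-α promyelocytes held 6.07, 5.03 and 5.36 CPM. All TNF-α libraries were below all vehicle libraries, and the log2 fold change was -0.95 ± 0.13 (SE; adjusted p = 1.48e-05, edgeR). The fall was steeper in granulocytes, from 40.1, 40.8 and 41.3 CPM to 12.6, 11.04 and 10.99 CPM. The groups were far apart, with a log2 fold change of -1.77 ± 0.07 (SE; adjusted p = 7.69e-22, edgeR). TNF-α granulocytes held 11.5 ± 0.915 CPM, beside 10.6 ± 1.18 CPM in vehicle promyelocytes (SD, n = 3). These are values of separate experiments, and their difference was not tested.

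CXCR4 binds CXCL12, the chemokine of the bone marrow stroma (hg38 chr2:136114349-136118165, minus strand). In promyelocytes it rose from 22.2, 17.1 and 18.5 CPM to 43.1, 48.2 and 43.7 CPM. Every TNF-α library was well above every vehicle library, with a log2 fold change of 1.22 ± 0.09 (SE; adjusted p = 2.04e-09, edgeR). In granulocytes the levels were 7.93, 8.65 and 9.17 CPM with vehicle and 8.78, 7.88 and 9.68 CPM with TNF-α. The groups overlapped, and the log2 fold change of 0.07 (95% confidence interval -0.15 to 0.30) did not pass (adjusted p = 0.608, edgeR).

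The balance between the 2 CXC receptors moved in both cell types. Per length, the ratio of CXCR2 to CXCR4 was 0.362, 0.434 and 0.346 in the vehicle promyelocyte libraries and 0.0969, 0.0719 and 0.0843 in the TNF-α promyelocyte libraries. In granulocytes it was 3.48, 3.25 and 3.10 with vehicle and 0.988, 0.964 and 0.782 with TNF-α. No library of a TNF-α group reached the vehicle group of the same cell type. CXCR2 RNA exceeded CXCR4 RNA per length in the 3 vehicle granulocyte libraries and lay below it in the other 9 libraries. In TNF-α granulocytes the ranges of the 2 receptors overlapped per length. Without division by length CXCR2 was the higher there, at a mean of 11.5 CPM beside 8.78 CPM for CXCR4. With 3 libraries a group an exact permutation test of such a ratio could not give a p below 0.10, and none was run.

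CCR1 binds CCL3, CCL5 and related inflammatory chemokines (hg38 chr3:46201709-46208396, minus strand). It was low in promyelocytes, at 7.63, 6.37 and 6.08 CPM with vehicle and 3.66, 3.80 and 3.34 CPM with TNF-α. The libraries did not overlap, and CCR1 fell by 0.89 ± 0.15 on the log2 scale (SE; adjusted p = 0.000182, edgeR). In granulocytes it was at 198, 214 and 219.6 CPM with vehicle and 163, 161 and 149.5 CPM with TNF-α. All TNF-α libraries were again lower, by a smaller step of -0.37 ± 0.05 (log2 fold change, SE; adjusted p = 1.1e-07, edgeR).

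CCR2 is the receptor for CCL2 and is best known from the recruitment of monocytes (hg38 chr3:46353734-46360928, plus strand). Few read pairs fell on it: 23, 32 and 28 counts in vehicle promyelocytes, and 7, 6 and 6 counts in TNF-α promyelocytes. This was a fall of 2.08 ± 0.41 on the log2 scale (SE; adjusted p = 0.0011, edgeR), with libraries that did not overlap. In granulocytes CCR2 had 95, 87 and 113 counts with vehicle and 22, 21 and 18 counts with TNF-α. The log2 fold change was -2.03 ± 0.24 (SE; adjusted p = 3.93e-09, edgeR); the libraries did not overlap here either.

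CCR7 guides dendritic cells and lymphocytes to lymph nodes in response to CCL19 and CCL21 (hg38 chr17:40553769-40565472, minus strand). Vehicle promyelocytes held 28, 24 and 27 counts and TNF-α promyelocytes 18, 20 and 24 counts. In CPM these were 0.901, 0.883 and 0.949 against 0.687, 0.724 and 0.770, which do not overlap, but the log2 fold change of -0.32 ± 0.31 (SE) did not pass (adjusted p = 0.560, edgeR). All 6 granulocyte libraries had 0 counts, which allows up to 3 counts in each.

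LTB4R, also called BLT1, is the high-affinity receptor for leukotriene B4 (hg38 chr14:24311450-24318036, plus strand). Of its 4465 exon bases, 355 are shared with LTB4R2 on the same strand, and read pairs there could not be assigned to either gene. LTB4R was at 17.1, 21.97 and 23.2 CPM in vehicle promyelocytes and 22.6, 22.1 and 22.4 CPM in TNF-α promyelocytes. The TNF-α values fell inside the vehicle range, and the log2 fold change of 0.11 (95% confidence interval -0.09 to 0.31) did not pass (adjusted p = 0.503, edgeR). In granulocytes LTB4R fell from 168, 177 and 189.7 CPM to 126, 119 and 114 CPM. These groups did not overlap, with a log2 fold change of -0.53 ± 0.05 (SE; adjusted p = 5.47e-11, edgeR).

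PTAFR binds platelet-activating factor, a phospholipid that primes neutrophils, and showed the largest fold change of the 10 receptors in each cell type (hg38 chr1:28147166-28193936, minus strand). In promyelocytes it went from 52, 46 and 38 counts to 457, 374 and 422 counts. As CPM these were 1.67, 1.69 and 1.34 with vehicle and 17.4, 13.5 and 13.5 with TNF-α. The lowest TNF-α library was several times the highest vehicle library, and the log2 fold change was 3.24 ± 0.15 (SE; adjusted p = 3.53e-12, edgeR). In granulocytes PTAFR rose from 50, 55 and 83 counts to 563, 715 and 565 counts, or from 1.93, 1.84 and 2.84 CPM to 24.7, 24.8 and 24.7 CPM. The 3 TNF-α libraries were almost the same after scaling, and the log2 fold change was 3.53 ± 0.12 (SE; adjusted p = 5.5e-25, edgeR).

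The responses themselves were compared between the cell types with the interaction term of a fit of all 12 libraries. Each cell type was a separate experiment, so effects of cell type and of experiment cannot be told apart in these differences. Of the 9 receptors tested, 5 passed at an adjusted p under 0.05, against 24.0% of all 18124 genes tested (14.1% higher in granulocytes and 9.88% lower). FPR2 and CCR1 had higher log2 fold changes in granulocytes, and CXCR4, CXCR2 and LTB4R had lower ones. The direction of the background depended on the scaling: 2561 genes were higher and 1790 lower with TMM, but 2128 higher and 2266 lower with DESeq2 size factors and 2129 higher and 2360 lower after removal of GC content and length trends. The 5 receptor calls and their directions were the same under each of these.

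CXCR4 differed the most, by -1.11 ± 0.14 (granulocytes minus promyelocytes, log2, SE; adjusted p = 1.29e-06, edgeR interaction). It rose in promyelocytes and did not pass in granulocytes. CXCR2 differed by -0.79 ± 0.14 (adjusted p = 0.000116, edgeR interaction), a steeper fall in granulocytes. LTB4R differed by -0.60 ± 0.10 (adjusted p = 8.82e-05, edgeR interaction), with a fall past the threshold in granulocytes alone. CCR1 differed by 0.57 ± 0.13 (adjusted p = 0.00121, edgeR interaction), a shallower fall in granulocytes, and FPR2 by 0.48 ± 0.08 (adjusted p = 6.41e-05, edgeR interaction), a larger rise in granulocytes.

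For the other 4 receptors tested, the difference between the responses did not pass. It was 0.33 for PTAFR, with a 95% confidence interval of -0.13 to 0.79, and 0.09 for CCR2, with an interval of -0.71 to 0.89. The CCR2 interval is uncertain, since its SE of 0.39 became 1.37 without TNF-α promyelocyte replicate 3. For FPR1 the difference was 0.50, from -0.14 to 1.13, so the increase of FPR1 in granulocytes was not shown to be particular to them. C5AR1 differed by 0.36, from -0.36 to 1.08.

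Between the vehicle groups, 7 receptors were higher in granulocytes, 2 were lower and 1 did not pass, where 72.0% of all genes tested passed (35.7% higher and 36.3% lower). For all 10 receptors the libraries of the vehicle groups did not overlap, as for 74.3% of all genes tested. Cell type and experiment cannot be told apart in these values. CCR1 stood 31.0-fold higher in vehicle granulocytes, with a log2 difference of 4.95 ± 0.08 (SE; adjusted p = 1e-26, edgeR). LTB4R was 8.50-fold, FPR1 8.15-fold, FPR2 7.22-fold, CXCR2 3.80-fold and CCR2 3.57-fold higher. CXCR4 was 2.27-fold lower in vehicle granulocytes (log2 difference -1.19 ± 0.10, SE; adjusted p = 4.5e-11, edgeR). CCR7 was at least 8.56-fold lower, computed against the floor of 3 counts in a library. C5AR1 differed by 0.33, with a 95% confidence interval of -0.15 to 0.81, and did not pass. PTAFR was 1.39-fold higher (adjusted p = 0.0294, edgeR), but the call was lost without vehicle granulocyte replicate 3 (log2 difference 0.26, adjusted p = 0.275) and without vehicle promyelocyte replicate 3 (0.36, adjusted p = 0.130).

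**Figure D3:**
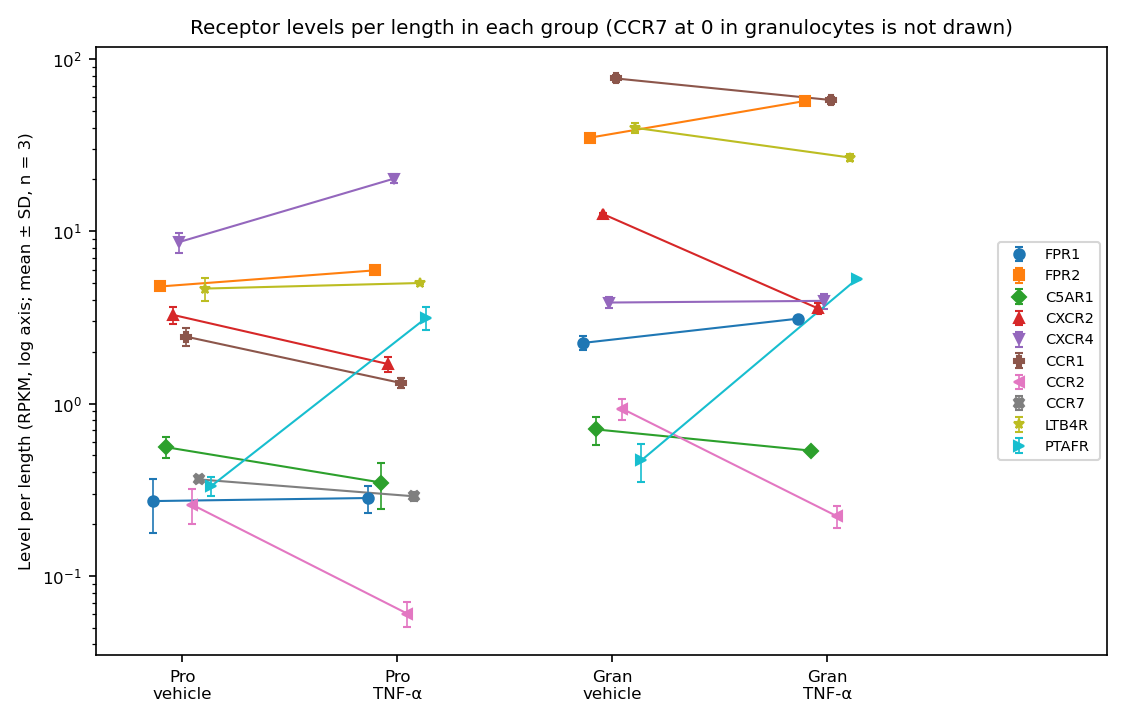
Level per length (RPKM, log axis) of each receptor in the 4 groups, as the mean ± SD of 3 libraries, with lines joining vehicle and TNF-α within a cell type. CXCR4 led in promyelocytes and CCR1 in vehicle granulocytes, and PTAFR moved from the lower part of the order to rank 4 with TNF-α in both cell types.

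To order the receptors, levels were expressed per length as RPKM (CPM divided by the exon length in kilobases, on TMM library sizes). In vehicle promyelocytes CXCR4 led at 8.66 ± 1.17 RPKM (SD, n = 3). FPR2 at 4.78 and LTB4R at 4.65 RPKM followed with overlapping libraries, then CXCR2 at 3.27 and CCR1 at 2.45 RPKM. C5AR1, CCR7, PTAFR, FPR1 and CCR2 were all under 1 RPKM, and from CCR7 downwards each overlapped its neighbor.

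With TNF-α, CXCR4 reached 20.2 ± 1.24 RPKM (SD, n = 3) in promyelocytes and made up 52.8% of the RPKM summed over the 10 receptors, from 33.8% with vehicle. PTAFR rose from 0.333 to 3.15 RPKM and passed CXCR2 and CCR1, at 1.70 and 1.32 RPKM, without overlap. The sum over the 10 receptors was 25.1 to 26.6 RPKM in vehicle libraries and 37.3 to 39.3 RPKM in TNF-α libraries.

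Vehicle granulocytes had another order. CCR1 led at 77.1 ± 4.01 RPKM, LTB4R followed at 39.9 ± 2.48 and FPR2 at 35.0 ± 0.990 (SD, n = 3), and these 3 did not overlap. CXCR2 was at 12.6, CXCR4 at 3.86 and FPR1 at 2.25 RPKM. CCR2 at 0.934 and C5AR1 at 0.708 RPKM overlapped, PTAFR was at 0.469 RPKM, and CCR7 was at 0.

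In TNF-α granulocytes CCR1 at 57.8 ± 2.71 and FPR2 at 57.0 ± 1.18 RPKM (SD, n = 3) overlapped at the top. LTB4R followed at 26.8 RPKM, and then PTAFR at 5.26 RPKM. CXCR4 at 3.95 and CXCR2 at 3.57 RPKM overlapped, and FPR1 followed at 3.11 RPKM. The sum over the receptors was 165 to 179 RPKM in vehicle granulocytes and 153 to 162 RPKM in TNF-α granulocytes.

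Marker genes of cell types and states were measured beside these values. Over all genes tested, TNF-α increased 8.15% and decreased 6.65% in promyelocytes. In granulocytes these shares were 24.4% and 24.8%. In promyelocytes TNF-α decreased 4 of 6 promyelocyte markers, whose sum went from between 7919 and 8487 CPM to between 6483 and 7427 CPM. Of the 6 granulocyte markers there, 2 were increased and 2 decreased, and their sum was 463 to 489 CPM with TNF-α, above the vehicle libraries. In granulocytes 4 of 6 granulocyte markers were decreased and 1 was increased, and the sum went from between 4153 and 4413 CPM to between 4425 and 4756 CPM. Of 5 promyelocyte markers tested in granulocytes, 1 was decreased. The 5 macrophage marker genes summed to 49.7 to 51.5 CPM in vehicle granulocytes and 29.1 to 32.8 CPM in TNF-α granulocytes, with CD14 and CSF1R the only ones above the floor. Only CSF1R was tested, and it was decreased in granulocytes and did not pass in promyelocytes. The 5 eosinophil marker genes summed to 76.6 to 82.4 CPM in vehicle granulocytes and 67.2 to 74.6 CPM in TNF-α granulocytes, with EPX, the eosinophil peroxidase, at or under the floor. Neither of the 2 eosinophil markers tested passed there, with a median log2 fold change of 0.25, and in promyelocytes 2 of 3 were decreased. Of 4 lymphocyte markers tested in each cell type, 1 was increased in granulocytes and none passed in promyelocytes. The part of such cells or states in the receptor values was not tested.

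Of 21 further chemoattractant receptors, 5 were tested in promyelocytes and 7 in granulocytes. In promyelocytes 2 were increased, none was decreased and 3 did not pass (edgeR adjusted p under 0.05), with a median log2 fold change of 0.08. In granulocytes 2 were increased and 5 were decreased, with a median of -0.77. Over all genes tested, 14.8% passed in promyelocytes and 49.2% in granulocytes, which is the background for this and each later list. The increased pair was the same in both cell types. C3AR1, the receptor for the complement fragment C3a, rose from 10.1 ± 1.95 to 53.0 ± 2.82 CPM in promyelocytes and from 14.2 ± 0.0750 to 35.9 ± 1.63 CPM in granulocytes (SD, n = 3). CXCR5, the receptor for CXCL13 known from B cells, rose from 0.138 to 0.817 CPM in promyelocytes and from 4.99 to 17.6 CPM in granulocytes. Its promyelocyte values rest on few counts near the floor: 5, 4 and 3 with vehicle and 18, 23 and 29 with TNF-α.

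The receptors that fell in granulocytes bind lipids and chemokines. CYSLTR2, a cysteinyl leukotriene receptor, fell from 7.70 ± 0.820 to 0.990 ± 0.0615 CPM (SD, n = 3; log2 fold change -2.90 ± 0.18, SE). CYSLTR1, the other cysteinyl leukotriene receptor, fell by 0.93 and LTB4R2, the low-affinity leukotriene B4 receptor, by 0.43 on the log2 scale. In promyelocytes CYSLTR1 did not pass, but it did as a decrease after removal of GC content and length trends (log2 fold change -0.30, adjusted p = 0.00388, edgeR) and in the fit of all 12 libraries (-0.22, adjusted p = 0.0181, edgeR). CCR3, the eotaxin receptor of eosinophils, fell from 54.9 ± 2.05 to 16.0 ± 0.289 CPM (SD, n = 3; log2 fold change -1.73 ± 0.07, SE). CXCR3, the receptor for CXCL9 to CXCL11, had a log2 fold change of -0.77.

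Of 5 atypical receptors, which bind chemokines without signalling through G proteins, 2 were tested in each cell type. Neither ACKR2 (log2 fold change -0.42, adjusted p = 0.630, edgeR) nor CCRL2 (0.24, adjusted p = 0.668, edgeR) passed in promyelocytes. In granulocytes ACKR2, a scavenger of CC chemokines, fell from 12.02 to 5.34 CPM, and CCRL2, which binds chemerin, rose from 6.74 to 12.6 CPM. Both passed (adjusted p = 1.48e-10 and 6.68e-10, edgeR).

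Several of these genes lie in the chemokine receptor cluster on chromosome 3, and 11 genes between LZTFL1 and RTP3 (hg38 chr3:45823316-46500949) were followed across it. Of these, 5 were tested in promyelocytes and 6 in granulocytes. In granulocytes CCR1, CCR2 and CCR3 fell, while CCRL2 rose. LZTFL1 fell (log2 fold change -0.34, adjusted p = 0.0217, edgeR) and FYCO1 rose (0.27, adjusted p = 0.00204, edgeR), both by small steps. The LZTFL1 call was lost without each of vehicle granulocyte replicate 3 (adjusted p = 0.0593), TNF-α granulocyte replicate 1 (0.0577) and TNF-α granulocyte replicate 3 (0.0692), and with DESeq2 (0.101). In promyelocytes CCR1 and CCR2 fell, FYCO1 had a log2 fold change of -0.22, and LZTFL1 (-0.10) and CCRL2 (0.24) did not pass. The FYCO1 call in promyelocytes (adjusted p = 0.0208, edgeR) was lost with the replicate block (0.0826) and without each of 3 libraries: vehicle promyelocyte replicates 1 (0.0603) and 2 (0.105) and TNF-α promyelocyte replicate 2 (0.0771).

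**Figure D4:**
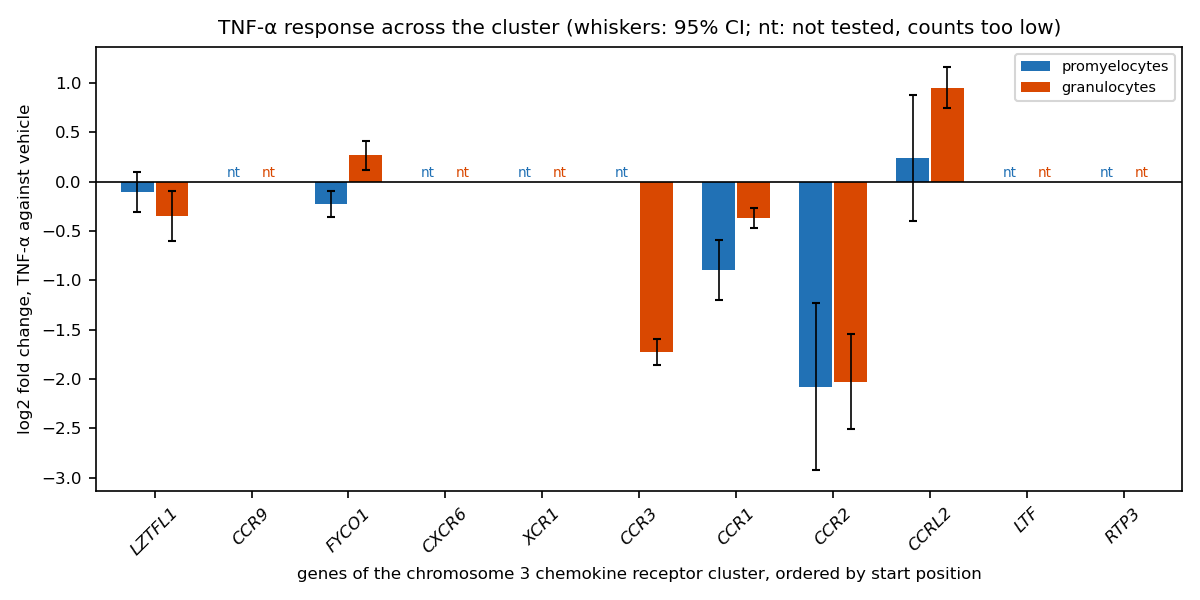
Log2 fold change with TNF-α against vehicle (y axis) for the 11 genes of the chromosome 3 cluster ordered by start position, in promyelocytes (blue) and granulocytes (orange), with 95% confidence intervals. Genes with counts too low to test are marked nt. The decreases in granulocytes fell on LZTFL1, CCR3, CCR1 and CCR2, and CCRL2 rose by 0.95.

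Genes for ligands of these receptors were followed as well. Of 24 genes for peptide ligands, 11 were tested in promyelocytes, where 5 were increased and 1 was decreased, with a median log2 fold change of 0.89. In granulocytes 12 were tested, 7 were increased and 2 were decreased, with a median of 1.94. CCL4, a CC chemokine, rose from 0.700 to 45.5 CPM in promyelocytes and from 3.45 to 574 CPM in granulocytes. CCL3, a ligand of CCR1, had log2 fold changes of 4.51 and 6.89. CXCL8, a ligand of CXCR2, rose from 19.1 to 231 CPM in promyelocytes and from 89.3 to 2610.4 CPM in granulocytes.

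Of 11 genes that make or break down leukotriene B4 and platelet-activating factor, 9 were tested in promyelocytes, where 1 was increased and none was decreased. That gene was ALOX5AP, which presents arachidonic acid to 5-lipoxygenase, with a log2 fold change of 0.60 ± 0.11 (SE). LPCAT1 passed there as an increase after removal of GC content and length trends (0.18, adjusted p = 0.00642, edgeR), and PLA2G4A without TNF-α promyelocyte replicate 3 (0.23, adjusted p = 0.0345, edgeR). In granulocytes 10 were tested, 2 were increased and 5 were decreased. LPCAT1, an acyltransferase of phosphatidylcholine and platelet-activating factor synthesis, rose from 56.3 to 80.3 CPM, and ALOX5AP rose from 423 to 509.8 CPM. PLA2G4A, the phospholipase that releases arachidonic acid, fell from 23.7 to 10.5 CPM, and CYP4F3, which inactivates leukotriene B4, fell from 114 to 70.8 CPM.

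All 21 genes for signalling downstream of the receptors, among them G proteins, kinases, phospholipases and exchange factors, were tested. In promyelocytes 3 were increased, 3 were decreased and 15 did not pass, and in granulocytes 11 were increased, 5 were decreased and 5 did not pass. FGR, a kinase of the Src family, had log2 fold changes of 1.66 and 0.68. PIK3R5, a regulatory subunit of phosphoinositide 3-kinase gamma, rose by 0.74 and 0.62, and GNA15, a G protein alpha subunit of the Gq class, by 0.60 and 1.05 on the log2 scale. PLCB2, a phospholipase C of the beta class, fell by 0.43 in promyelocytes and 0.21 in granulocytes on the log2 scale. PLCB3, of the same class, rose from 80.8 to 120 CPM in granulocytes (log2 fold change 0.62) and did not pass in promyelocytes (-0.19, adjusted p = 0.0866, edgeR). The PLCB3 value passed there as a decrease without TNF-α promyelocyte replicate 3 (adjusted p = 0.0255, edgeR) and in the fit of all 12 libraries (0.0288).

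Of 6 genes for receptor kinases and arrestins, which desensitize these receptors, 2 were increased and 2 decreased in promyelocytes, and 2 were increased and 3 decreased in granulocytes. GRK3 rose in both, from 139 to 185 CPM and from 179 to 249 CPM. ARRB1, beta-arrestin 1, rose from 112 to 177 CPM in granulocytes, and GRK5 fell from 2.55 to 1.35 CPM there. In promyelocytes ARRB1 had a log2 fold change of 0.20 (adjusted p = 0.0363, edgeR), a call lost without any of 4 of the 6 libraries (adjusted p from 0.0587 to 0.133) and with the replicate block (0.110). ARRB2 fell by 0.21 in promyelocytes (adjusted p = 0.0373, edgeR) and by 0.22 in granulocytes. Its promyelocyte call was likewise lost without any of 4 libraries (adjusted p from 0.0656 to 0.197) and with the replicate block (0.0840). GRK6 had a log2 fold change of -0.24 in promyelocytes (adjusted p = 0.00776, edgeR), lost without vehicle promyelocyte replicate 2 (0.0608), and of -0.02 in granulocytes, which became a decrease of -0.20 after removal of GC content and length trends (adjusted p = 9.3e-05, edgeR).

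For each receptor, the genes whose log2 CPM followed it most closely over the 12 libraries were found among 12367 or 12368 genes. These Pearson correlations describe 4 groups of 3 libraries and largely follow the group means. PTAFR was most like IER3, an early response gene (r = 0.993), and STX11, a syntaxin of immune cells (r = 0.992). CXCR4 was most like GDF11 (r = 0.993) and DNAJB11 (r = 0.983), and CXCR2 most like BSG-AS1 (r = 0.993) and SMIM3 (r = 0.992). BSG-AS1 is an antisense gene. The closest genes were PLXNC1, a semaphorin receptor, and CD300LB for CCR1, CDC42SE1 and SUSD6 for FPR2, and ARHGAP12 and INPP5B for FPR1. For LTB4R they were IFNAR2, a subunit of the interferon alpha receptor, and ITPR2, a calcium channel of the endoplasmic reticulum. CCR2 was most like PRAG1 and TMEM129 (r = 0.982 and 0.981), and CCR7 most like ZBTB16, a transcription factor of immature myeloid cells, and AGAP7P. C5AR1 had the weakest likeness of the 10, with ATRN at r = 0.913 and UVSSA at r = 0.904.

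Promoter sequence was examined because PTAFR had the largest fold changes, and CXCR4 and CXCR2 differed the most between the cell types. CCR2 had the next largest fold changes after PTAFR (log2 -2.08 in promyelocytes and -2.03 in granulocytes), and its window is not shown. The 250 bases before a RefSeq transcription start (GRCh38.p14) were matched by symbol for 9 of the 10 receptors, all but CCR7, in 13 windows. They were searched on both strands for the kappa B motif, AP-1 (TGANTCA), C/EBP (TTGCNNAA), PU.1 (GAGGAA) and a half-site of retinoic acid receptors (AGGTCA). Capitals mark each match in the sequences, which read 5′ to 3′ on the strand of the gene and end at the base before the start. The promoters of PTAFR (both starts), CXCR4 (first start), CXCR2 and FPR2 (second start, the one with a kappa B match) are shown.
PTAFR, first start, chr1:28193857-28194106, minus strand: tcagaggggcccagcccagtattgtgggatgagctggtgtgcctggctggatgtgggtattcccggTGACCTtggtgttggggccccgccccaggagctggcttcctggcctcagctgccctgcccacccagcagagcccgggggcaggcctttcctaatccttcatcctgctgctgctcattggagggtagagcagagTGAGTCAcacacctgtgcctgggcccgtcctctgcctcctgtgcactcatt
PTAFR, second start, chr1:28176691-28176940, minus strand: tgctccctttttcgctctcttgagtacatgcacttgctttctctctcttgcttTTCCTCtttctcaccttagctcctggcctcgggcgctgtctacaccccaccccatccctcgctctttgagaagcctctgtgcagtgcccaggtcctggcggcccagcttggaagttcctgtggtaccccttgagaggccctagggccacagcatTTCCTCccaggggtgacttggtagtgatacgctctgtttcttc
CXCR4, first start, chr2:136118150-136118399, minus strand: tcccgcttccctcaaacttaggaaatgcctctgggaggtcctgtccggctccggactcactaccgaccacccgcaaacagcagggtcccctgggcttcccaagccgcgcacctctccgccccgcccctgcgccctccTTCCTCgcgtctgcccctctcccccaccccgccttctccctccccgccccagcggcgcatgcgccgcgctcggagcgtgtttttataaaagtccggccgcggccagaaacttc
CXCR2, chr2:218125778-218126027, plus strand: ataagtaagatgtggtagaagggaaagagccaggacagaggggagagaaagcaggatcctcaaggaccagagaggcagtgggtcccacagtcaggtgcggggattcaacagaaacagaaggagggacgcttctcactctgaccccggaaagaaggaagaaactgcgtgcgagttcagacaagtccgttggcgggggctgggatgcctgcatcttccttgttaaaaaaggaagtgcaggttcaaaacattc
FPR2, second start, chr19:51763139-51763388, plus strand: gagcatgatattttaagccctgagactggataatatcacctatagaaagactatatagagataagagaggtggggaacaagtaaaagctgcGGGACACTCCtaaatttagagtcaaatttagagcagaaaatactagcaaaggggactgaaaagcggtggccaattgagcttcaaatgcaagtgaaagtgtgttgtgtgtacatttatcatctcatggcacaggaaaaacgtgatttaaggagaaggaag

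The first PTAFR window held 1 AP-1 match, TGAGTCA, 51 bases before the start and 1 half-site match on the opposite strand, and the second held 2 PU.1 matches on the opposite strand. A kappa B match was found in 1 of the 13 windows, the second FPR2 window (GGGACACTCC, 159 bases before the start), where 9.96% of all 35116 RefSeq windows of this length held one. AP-1 matches were found in 2 of 13 windows, PTAFR and CCR2, against 6.57% of all windows, and PU.1 matches in 4 of 13, against 23.6%. C/EBP was matched in 1 window, that of CCR2, against 9.05%, and the half-site in 1, the first of PTAFR, against 12.1%. The CXCR2 window held none of the 5 motifs. Of the 3 CXCR4 windows, the first and the third held 1 PU.1 match each, on the opposite strand. These matches describe letters only, and binding of any factor was not measured.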

How the data were processed

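RNA of HL-60/S4 cells was measured by paired-end RNA-seq in 12 libraries, 3 for each of the 4 groups. Samples were grouped by their titles. Nothing in the labels says that the 3 libraries of a group came from separate cultures, and the study's methods name separate flasks, so p-values measure the spread between these flasks of 1 cell line.

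The authors deposited raw counts of read pairs per gene without normalization, and the exon length of each gene. Per the submitters' processing notes the tools were FastQC 0.11.4, STAR 2.5.3a, featureCounts 1.5.2 and DESeq2 1.16.1, with hg38. The deposited header shows that counting used primary alignments of pairs with both ends mapped on the reverse strand, so antisense genes were kept apart. A pair that maps to several places counts once at its primary alignment, which leaves the split between paralogs such as FPR1 and FPR2 uncertain. All 12 sample columns were used, and 57577 of 58288 identifiers had a symbol.

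Promyelocyte and granulocyte libraries were analysed in separate fits, with edgeR 4.0.16 under R 4.3.3 (TMM scaling; filterByExpr with minimum count 10 and minimum total 15; quasi-likelihood test; Benjamini-Hochberg adjustment over all genes tested, threshold 0.05). DESeq2, the study's tool, was an alternative (version 1.42.0). The interaction and the vehicle groups were tested in a fit of all 12 libraries. Fold changes are edgeR estimates with a prior count of 0.125, CPM and RPKM use TMM library sizes, and standard errors were derived from the fold change and the F statistic. A group's spread is that of 3 libraries. The floor of 3 counts in a library covers counting error only, and a fold against a group at 0 was computed against that floor, averaged over the libraries of the group. The procedure was also run on simulated counts in which only a small share of genes, all well counted, was changed. That run does not cover rarely counted receptors or the large share of genes called in granulocytes.

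The members and gene lists were chosen with earlier results of these data known. A few genes of the lists are not reported here and were left out of the counts and sums of their lists. The text names all 10 receptors; each further or atypical receptor past the threshold in a TNF-α comparison; from the other lists the 3 called genes with the largest change and a mean log2 CPM of at least 1 in each comparison; every gene tested of the chromosome 3 cluster; and the 2 genes most like each receptor (log2 of CPM + 0.5, mean log2 CPM of at least 1). Alternatives were DESeq2's size factors, no expression filter, DESeq2, the replicate number as a block, removal of GC content and length trends, all 12 libraries in 1 fit, and leaving out each library in turn. Replicate numbers did not pair the libraries: residuals of same-numbered vehicle and TNF-α libraries correlated at -0.27, -0.14 and -0.21 in promyelocytes and -0.13, 0.01 and -0.16 in granulocytes. Tables and plots were made with Python 3.11.15, pandas 2.3.3 and matplotlib 3.10.9. The study's RT-qPCR was not analysed here.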

Additional observations from a re-analysis of the deposited data

Results flagged for a closer look

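For 5 of the 9 receptors tested, 3 of 7 further receptors and 1 of 2 atypical receptors, the TNF-α response differed between promyelocytes and granulocytes by the interaction term of the edgeR fit of all 12 libraries (adjusted p under 0.05), against 24.0% of all genes tested. Values are the granulocyte minus the promyelocyte log2 fold change. Among the 10 receptors they were -1.11 for CXCR4, -0.79 for CXCR2, -0.60 for LTB4R, 0.57 for CCR1 and 0.48 for FPR2. Among the further receptors, C3AR1 differed by -0.96 (adjusted p = 3.4e-06), a larger rise in promyelocytes. CYSLTR1 differed by -0.70 (adjusted p = 5.47e-07) and LTB4R2 by -0.46 (adjusted p = 0.00931). Both fell in granulocytes, and in the separate fit of promyelocytes neither passed. CYSLTR1 did pass there in the fit of all 12 libraries (-0.22, adjusted p = 0.0181, edgeR). CCRL2 differed by 0.76 (adjusted p = 0.0308), with a rise past the threshold in granulocytes only. Since each cell type was a separate experiment, effects of experiment and of cell type cannot be told apart in these values.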

How the results depend on the processing

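All calls for the receptors in granulocytes and of the interaction were the same under every alternative run. In promyelocytes the increased receptors numbered 2 to 3 and the decreased ones 3 to 4 when a library was left out, through FPR2 and C5AR1 as given above, and DESeq2 gave no adjusted p for CCR2 and FPR1. Leaving out a library moved the count of all genes decreased in promyelocytes between 653 and 1160, from 1081, with the low end without vehicle promyelocyte replicate 2 and 667 without TNF-α promyelocyte replicate 2. The 6 decreased genes in the ligand, enzyme, signalling, desensitization and further receptor lists in promyelocytes became 3 with the replicate block, 11 after removal of GC content and length trends, 11 in the fit of all 12 libraries, and 1 to 7 when a library was left out: 2 without vehicle promyelocyte replicate 1, 1 without vehicle promyelocyte replicate 2 and 3 without TNF-α promyelocyte replicate 2. Values near 0 changed sign when a library was left out: the promyelocyte log2 fold changes of FPR1 (-0.080 to 0.37), LTB4R (-0.011 to 0.20), LTB4R2 (-0.026 to 0.17) and LZTFL1 (-0.17 to 0.016), the granulocyte one of GRK6 (-0.052 to 0.015), and the interaction of CCR2 (-0.076 to 0.24); none of these passed the threshold with a library left out. The cause was not tested.

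With the replicate block, 1012 genes were increased and 821 decreased in promyelocytes, and 3837 and 3884 in granulocytes. It ended the promyelocyte calls of ARRB1, ARRB2 and FYCO1 and changed no call of a receptor. Same-numbered libraries did not deviate together, so the numbers were not taken as pairs. Rare receptors limit precision: CCR2, CCR7, FPR1 and C5AR1 had at most 51 counts in every promyelocyte library, and their intervals are the widest.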
